A study of Mus musculus with 95 samples.

Results

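The 10 consecutive libraries of pancreatic islets, numbered 76-85 in the labels, were set against the other 85 libraries of the same series. Islets are the clusters of endocrine cells of the pancreas: beta cells secrete insulin, alpha cells glucagon and delta cells somatostatin. Messenger RNA captured by its poly(A) tail was sequenced in 95 libraries. The mice belonged to founder strains of the Diversity Outbred stock, an outbred mouse population derived from a fixed set of inbred strains. The diet was the same in libraries 76-85 and in the other 85: it was rich in fat and sugar, with fat labelled as 45%. The labels give neither strain, sex, age nor genotype for any single library, and nothing in them says that each library came from its own animal. The 10 libraries were chosen by their numbers with expression values of these libraries already known, so the contrast of the 10 with the other 85 is a description throughout and carries no test.

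Inbred strains differ in gene expression because regulatory variants act on single genes, because deletions or gene copies change what can be transcribed, and because the makeup of a tissue differs. In islet preparations, a share of the RNA comes from acinar cells, the enzyme-secreting cells that surround islets, and from vessels, nerves and immune cells. In bulk libraries, fewer cells of a type and less RNA per cell cannot be told apart. Reads of near-identical genes and pseudogenes can be divided wrongly between them, so genes that share much of their sequence with another gene are marked as uncertain below.

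The 10 libraries resembled each other more than they resembled the rest. Over the 2000 autosomal genes with the most variable log2 CPM (the count over the column sum of its library, times 1000000), the 45 pairs within libraries 76-85 had a median Spearman's rho of 0.940, from 0.795 to 0.965. The 850 pairs of these libraries with a library of the other 85 had a median of 0.700, from 0.161 to 0.828. Of the 90 places among the 9 nearest libraries of each of the 10, 85 were held by libraries 76-85. The libraries next to the edges of the range resembled it less: library 75 had a median rho of 0.620 with the 10 and library 86 a median of 0.698, and each had 1 of its 9 nearest libraries among them. Libraries 81 and 85 stood apart within the range, with median rho values of 0.901 and 0.807 against 0.941 to 0.949 for the remaining 8. These correlations share the genes and depth of each library and are descriptions. Libraries 66-75 were about as much alike, with a median of 0.921 over their 36 pairs.

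**Figure D1:**
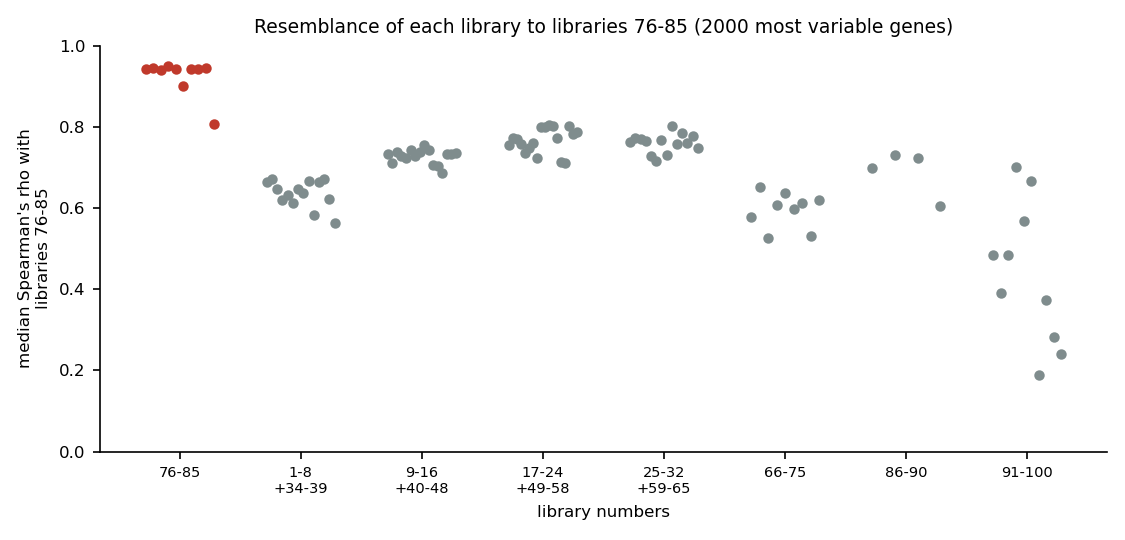
Median Spearman's rho of each library with libraries 76-85 (vertical axis), over the 2000 most variable autosomal genes, by range of library numbers (horizontal axis); each point is 1 library, red for 76-85 and grey for the other 85, and the other ranges were also set with these data in view. The red points lie at 0.807 or higher, above every grey point.

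Total counts ran from 19361236 to 28694592 in libraries 76-85 and from 16411809 to 34357253 in the other 85. Pairs within the 10 differed by more than sampling noise, with a chi-square per degree of freedom of 14.5 or higher, so each was counted as a library of its own. Xist, the RNA that coats the inactive X chromosome, was at 764 to 1078 CPM in libraries 76, 77, 81, 82 and 83. It was at 1.51 to 9.14 CPM in libraries 78, 79, 80, 84 and 85, which held 64.8 to 78.7 CPM of the Y-linked gene Ddx3y. Both patterns occurred within the range, and X- and Y-linked genes were left out of the comparison. Nnt, a mitochondrial proton-pumping transhydrogenase gene, lay between 58.3 and 71.6 CPM in libraries 76-85 and between 15.3 and 85.4 CPM in the other 85.

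Genes whose lowest value on one side exceeded the highest on the other were few. Of 15281 autosomal genes with 1 CPM or more in at least 10 libraries, 36 genes (0.236%) were higher in all 10 libraries than in any of the other 85, and 5 genes (0.0327%) were lower in all 10. A ratio of medians of 2-fold or more, after adding 0.5 CPM, was reached by 491 genes higher in libraries 76-85 (3.21%) and by 272 genes lower in them (1.78%). These shares describe the contrast that chose the libraries. The median log2 ratio of all 15281 genes was 0.18 on this scale, and 0.00 after trimmed-mean-of-M scaling of the totals (TMM, which discounts the most extreme genes). With TMM, 290 genes were 2-fold higher and 364 lower, so higher genes made up 44.3% of such genes against 64.4% on the scale of plain totals. Of the 36 genes, 22 still did not overlap under TMM, as did all 5 lower genes. Among the 36 were 4 that reached 1 CPM in fewer than 10 of the other 85. These 4 passed the filter only through libraries 76-85, where they were high. Only 2 of the 36 were separated by 1 log2 unit or more, and for 16 the gap was under 0.1. Other ranges of 9 and 10 libraries also had such genes against all the rest: 84 higher and 70 lower for libraries 66-75, and 6 higher and 11 lower for libraries 91-100.

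**Figure D2:**
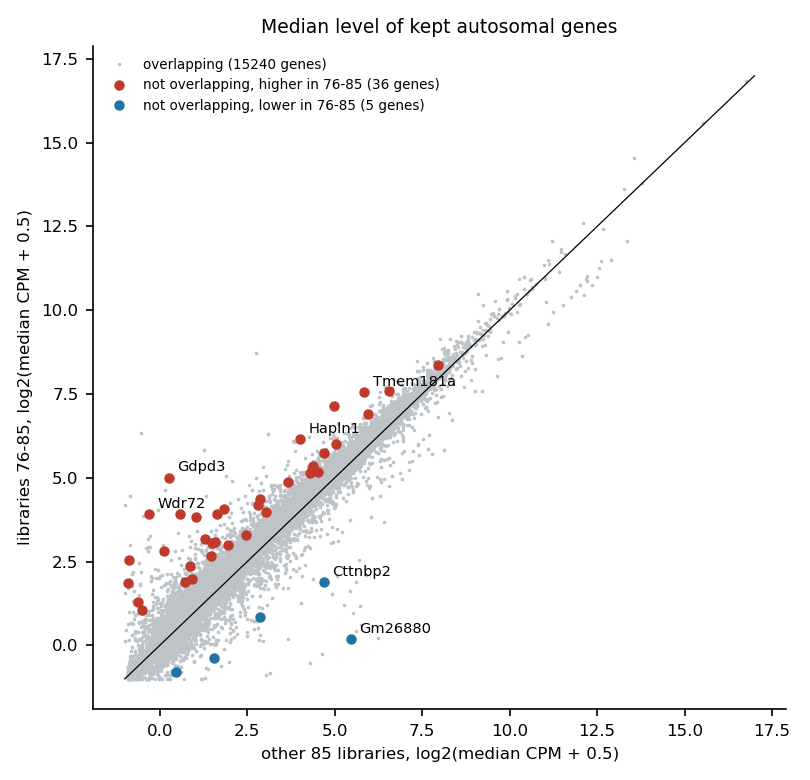
Median level of each of 15281 autosomal genes in libraries 76-85 (vertical axis) and in the other 85 (horizontal axis), both as log2(CPM + 0.5). Red points are the 36 genes higher in all 10 libraries and blue points the 5 lower in all 10; the black line marks equal medians.

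The gene with the widest gap was Gdpd3 (chromosome 7, 126766334 to 126775649, GRCm38, plus strand), which encodes a lysophospholipase D of the glycerophosphodiester phosphodiesterase family. Its level was 30.3 to 42.2 CPM in libraries 76-85, with a median of 31.6, against 0.0873 to 2.15 CPM in the other 85, with a median of 0.709. The log2 ratio of medians was 4.73. Every one of the 10 libraries lay far above every other library, and within the 10 the values differed little. The counts behind them were 613.5 to 1127 reads per library. A gene on the other strand overlaps Gdpd3, and whether the counting used strand is not given in the sources used here.

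The next widest gap among protein-coding genes was that of Fzd10 (chromosome 5, 128600844 to 128604093, plus strand), a receptor for Wnt signals. It was at 3.11 to 8.52 CPM in libraries 76-85, with a median of 5.33, against 0 to 2.05 CPM in the other 85, with a median of 0.0411. In 81 of the other 85 libraries it was under 1 CPM. It passed the filter of 1 CPM in at least 10 libraries only through libraries 76-85, where it was high. The noncoding RNA 5930412G12Rik, on the other strand and ending just before the start of Fzd10, had the same pattern: 2.37 to 4.38 CPM in the 10, against 0 to 0.772 CPM in the other 85. The highest of the other libraries was library 74 for both genes. 5930412G12Rik too passed the filter only through libraries 76-85.

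Hapln1 (chromosome 13, 89540636 to 89611832, plus strand), whose product links hyaluronan to proteoglycans in the extracellular matrix, was at 50.8 to 87.1 CPM in libraries 76-85, with a median of 71.0. In the other 85 it was at 5.00 to 36.6 CPM, with a median of 15.7. The log2 ratio was 2.14, and the groups did not overlap. Nov (chromosome 15, 54745702 to 54754039), a secreted matricellular protein of the CCN family, had a median of 8.57 CPM in the 10 and 1.94 CPM in the other 85, with a highest other value of 5.91 CPM against a lowest value of 6.76 CPM in the 10. Pcdhb8, a clustered protocadherin of cell adhesion on chromosome 18, had medians of 14.6 CPM in libraries 76-85 and 0.991 CPM in the other 85, and shares 19.2% of its 31-base words with another gene. Greb1l, a gene needed for kidney formation, was at 11.5 to 19.9 CPM in the 10 against 0.593 to 8.86 CPM in the other 85.

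Wdr72 (chromosome 9, 74110356 to 74283308, plus strand), known for its part in enamel formation, had a median of 14.7 CPM in libraries 76-85, from 10.7 to 15.9. The other 85 had a median of 0.305 CPM, from 0 to 7.72, and 71 of them were under 1 CPM. The highest of the other libraries were in the ranges 86-90 and 91-100, with library 100 at the top. The groups did not overlap, and the log2 ratio was 4.24.

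The 250 bases before the gene start that RefSeq's promoter table uses (GRCm38.p6) are shown for Gdpd3, Fzd10 and Hapln1, which were higher in all 10 libraries with a wide gap, and for Cttnbp2, the protein-coding gene lower in all 10 libraries that shares few words with other genes. That start differs from the authors' gene positions in some cases: the Fzd10 stretch lies within the gene as the authors place it, and the Gdpd3 stretch reaches past the authors' start. The letters are the reference strain's bases, not those of the sequenced mice, and are printed 5′ to 3′ on the gene's own strand, with matches to the searched motifs in capitals. Each motif was searched on both strands and compared with 32851 promoters of this length. The TATA box motif TATAAA was in 12.4% of them. The GC box motif GGGCGG was in 32.7%. The CCAAT box motif was in 33.8%. The forkhead motif TGTTTAC was in 3.17%.
Gdpd3, chr7:126766164-126766413, plus strand: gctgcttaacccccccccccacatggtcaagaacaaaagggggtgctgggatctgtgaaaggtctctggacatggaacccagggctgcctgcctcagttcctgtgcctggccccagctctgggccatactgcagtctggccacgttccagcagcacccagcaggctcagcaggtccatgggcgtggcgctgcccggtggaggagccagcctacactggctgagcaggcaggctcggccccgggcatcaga
Fzd10, chr5:128600856-128601105, plus strand: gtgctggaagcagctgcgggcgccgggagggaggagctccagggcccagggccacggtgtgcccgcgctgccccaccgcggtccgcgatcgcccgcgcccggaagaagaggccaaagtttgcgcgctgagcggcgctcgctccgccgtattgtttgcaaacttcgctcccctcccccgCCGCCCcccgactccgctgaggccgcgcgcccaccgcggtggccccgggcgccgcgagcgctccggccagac
Hapln1, chr13:89540386-89540635, plus strand: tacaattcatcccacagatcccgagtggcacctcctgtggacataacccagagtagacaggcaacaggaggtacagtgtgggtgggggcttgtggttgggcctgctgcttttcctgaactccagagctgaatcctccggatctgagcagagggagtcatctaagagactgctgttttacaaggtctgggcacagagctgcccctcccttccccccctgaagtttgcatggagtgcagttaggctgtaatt
Cttnbp2, chr6:18514870-18515119, minus strand: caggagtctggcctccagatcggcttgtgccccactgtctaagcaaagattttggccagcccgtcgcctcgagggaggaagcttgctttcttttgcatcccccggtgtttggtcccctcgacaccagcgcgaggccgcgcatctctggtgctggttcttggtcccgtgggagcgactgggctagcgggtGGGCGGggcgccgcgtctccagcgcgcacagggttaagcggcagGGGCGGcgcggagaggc
The Fzd10 stretch held 37 CG dinucleotides, more than 97.8% of the promoters held, and 1 GGGCGG match on the opposite strand. The Cttnbp2 stretch held 23 and 2 GGGCGG matches, the Gdpd3 stretch held 6, which is the median of all promoters, and the Hapln1 stretch held 2. In Gdpd3 and Hapln1 none of the 4 motifs was found in these letters. Of the 41 genes that did not overlap, 26 had an entry in the promoter table by symbol.

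**Figure D3:**
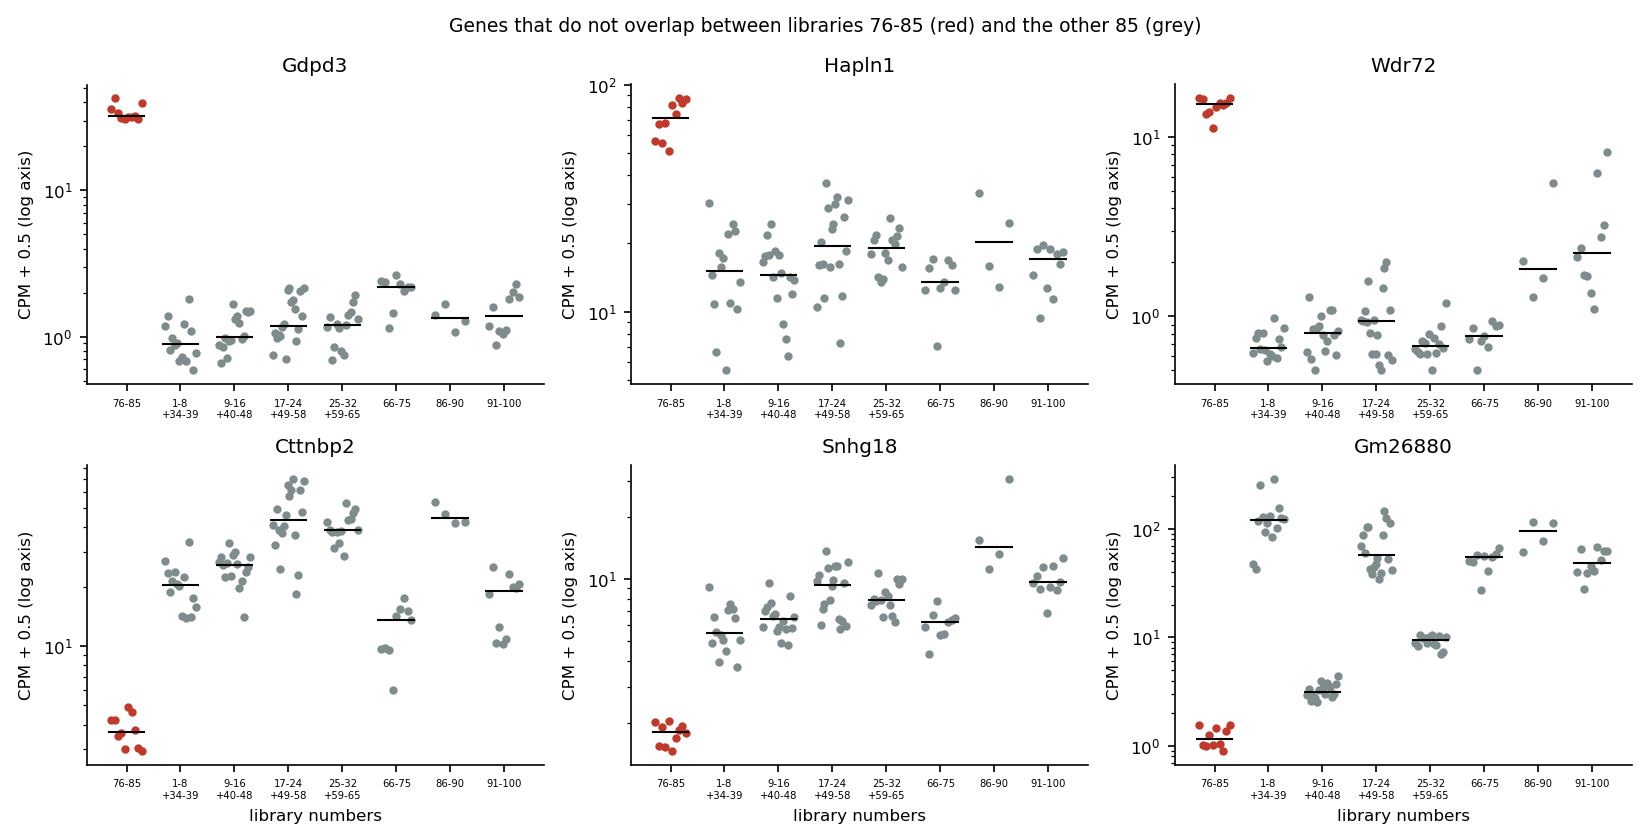
Level of 6 genes, as CPM + 0.5 on a log axis, in each library by range of library numbers, with a line at each range's median; libraries 76-85 are red and the other 85 grey. Gdpd3, Hapln1 and Wdr72 are above every other library in all 10, and Cttnbp2, Snhg18 and Gm26880 below every other library.

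Further genes were also without overlap on plain totals. Amph, which encodes amphiphysin, a protein that bends membranes at sites of endocytosis, was at 45.0 to 59.7 CPM in libraries 76-85, with a median of 53.5. The other 85 had 9.51 to 35.2 CPM, with a median of 25.3. Elovl7, an elongase of very long fatty acid chains, had medians of 16.1 CPM in the 10 and 3.09 CPM in the other 85, and its log2 ratio was 2.21. Cers4, a ceramide synthase, separated the groups by a narrow margin: its lowest value in the 10 was 33.8 CPM and the highest among the other 85 was also 33.8 CPM at this precision, with medians of 40.0 CPM in the 10 and 20.5 CPM in the other 85. Rab15, a small GTPase of recycling endosomes, and Wipi1, a phosphoinositide-binding protein of early autophagosomes, had log2 ratios of 1.57 and 0.98. Rab15 and Wipi1 did not overlap on plain totals, but did under TMM.

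Gcn1l1, the activator of the kinase that senses amino acid shortage, was at 161 to 215 CPM in libraries 76-85, with a median of 193. In the other 85 it was at 48.0 to 135 CPM, with a median of 92.5. Grb14, an adaptor protein that binds the insulin receptor and inhibits its signal, was at 33.3 to 43.0 CPM in the 10 against 5.34 to 30.1 CPM in the other 85, with medians of 36.8 CPM in the 10 and 20.1 CPM in the other 85. Its log2 ratio was 0.85, or 0.65 under TMM, and the groups did not overlap on either scale. Rapgefl1 had medians of 9.27 CPM in the 10 and 5.04 CPM in the other 85, and overlapped under TMM.

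Of the 41 genes that did not overlap, 3 lay close together in a stretch of 5 kept genes on chromosome 17, 6270470 to 6467022, where copies of the Tmem181 and Dynlt1 genes alternate. Tmem181a, a transmembrane protein gene, was at 148 to 228 CPM in libraries 76-85 against 13.9 to 133 CPM in the other 85. Tmem181b-ps, named as a pseudogene of the same family, was at 113 to 177 CPM in the 10 against 4.59 to 85.8 CPM in the other 85. Dynlt1b, a dynein light chain gene, was at 107 to 139 CPM in the 10 against 13.4 to 106 CPM in the other 85, and overlapped under TMM. These genes share 39.3%, 59.9% and 86.9% of their words with another gene, so the division of reads between the copies is uncertain. The copies Dynlt1a and Dynlt1c were higher too, with log2 ratios of 1.38 and 1.93, but overlapped, and Dynlt1f had a ratio of -0.05. Of the nearest kept genes outside the copies, Tulp4, before the stretch, had a ratio of 0.22 and Sytl3, after it, one of 0.80, and neither was without overlap.

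Another pair of neighbours was Plekhb1, a pleckstrin homology domain gene, and the noncoding RNA RP23-299D2.2 on chromosome 7, 100642892 to 100677760. Plekhb1 was at 22.8 to 31.7 CPM in the 10 against 3.74 to 22.2 CPM in the other 85, and overlapped under TMM. RP23-299D2.2 was at 4.41 to 7.32 CPM in the 10 against 0.116 to 2.37 CPM in the other 85. The pair Zfp940 and Arhgap33, on chromosome 7 between 29833620 and 30535060, was separated by other genes, with 33 kept genes in that stretch. Arhgap33 overlapped under TMM and Zfp940 did not.

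Some of the largest ratios belonged to genes that overlapped through a few other libraries. These were singled out after their values were seen. Prodh2 (chromosome 7, 30493622 to 30513402), a hydroxyproline dehydrogenase gene that lies within the stretch from Zfp940 to Arhgap33, was at 13.5 to 20.2 CPM in libraries 76-85, with a median of 17.7. In 74 of the other 85 libraries it was under 1 CPM, and 1, in the range 1-8 and 34-39, reached 19.1 CPM. Fbp1, the fructose bisphosphatase of gluconeogenesis, was at 23.5 to 37.2 CPM in the 10, with a median of 32.8, against a median of 3.25 CPM in the other 85, of which 1 was at or above the lowest of the 10. The log2 ratio was 3.15. Slc26a1, a sulfate and oxalate exchanger, had medians of 21.7 CPM in the 10 and 2.02 CPM in the other 85. Of the 7 other libraries at or above its lowest value in the 10, 6 were in the range 25-32 and 59-65. Dmtn, an actin-bundling protein of the membrane skeleton, had medians of 29.4 CPM in the 10 and 3.71 CPM in the other 85, and 15 other libraries were at or above the lowest of the 10, 8 of them in the range 25-32 and 59-65 and 7 in 66-75. Trank1 had medians of 5.05 CPM in the 10 and 0.166 CPM in the other 85, and the 6 other libraries within the range of the 10 were all in 1-8 and 34-39. Many of the most extreme ratios belonged to genes sharing 20% or more of their words with another gene: 13 of the 20 largest on the higher side and 14 of the 20 on the lower side. How common such sharing is among all kept genes was not computed, so these counts mark uncertain genes and show no excess.

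Cttnbp2 (chromosome 6, 18366478 to 18514843, minus strand), which binds cortactin at the actin of dendritic spines, was lower in all 10 libraries. It was at 2.44 to 4.41 CPM in libraries 76-85, with a median of 3.18, against 5.50 to 69.9 CPM in the other 85, with a median of 25.5. The log2 ratio was -2.82. The lowest of the other libraries was library 69. Snhg18, a noncoding host gene of a small nucleolar RNA, was at 0.966 to 1.54 CPM in the 10 against 3.23 to 30.1 CPM in the other 85, with medians of 1.32 CPM in the 10 and 6.80 CPM in the other 85. Gm26880, a noncoding RNA on chromosome 4, was at 0.398 to 1.07 CPM in the 10 against 2.02 to 288 CPM in the other 85, but shares 66.3% of its words with another gene. Jmjd7, a lysyl hydroxylase gene with 63.1% shared words, was at 0.0366 to 0.536 CPM in the 10 against 0.942 to 5.80 CPM in the other 85. The readthrough gene Gm28042, which overlaps Jmjd7 on the same strand, also had a lower median, 0.863 CPM in the 10 and 3.80 CPM in the other 85. Gm42585, within Kmt2c on the other strand, was at 0 to 0.204 CPM in the 10 against 0.273 to 4.23 CPM in the other 85. Kmt2c itself had medians of 102 CPM in the 10 and 87.9 CPM in the other 85.

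Genes with lower medians that overlapped included markers of several cell types. Serpini2, a serine protease inhibitor made by acinar cells, had a median of 2.55 CPM in libraries 76-85, from 0.769 to 5.49, and of 42.5 CPM in the other 85, from 1.27 to 263. Msln, the mesothelin gene, was at 3.07 to 6.55 CPM in the 10 against a median of 58.9 CPM in the other 85. All 10 of the other libraries that reached down to its level were in the range 1-8 and 34-39. Col6a6, a collagen VI chain, had medians of 2.39 CPM in the 10 and 29.6 CPM in the other 85, with 15 other libraries within reach of the 10. Adora2b, an adenosine receptor, was at 0.208 to 0.941 CPM in the 10 against 0.682 to 32.7 CPM in the other 85, and 2 other libraries overlapped. The potassium channel gene Kcnq3 had medians of 0.721 CPM in the 10 and 5.15 CPM in the other 85, and the secreted glycoprotein gene Stc2 medians of 0.923 CPM in the 10 and 6.49 CPM in the other 85. Tc2n and Fam107a had log2 ratios of -2.54 and -2.78, with 14 and 12 other libraries within reach of the 10.

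Acinar genes as a group were lower. Summed over 29 acinar genes, the share of counts had a median of 3.45% in libraries 76-85, from 1.14% in library 81 to 9.58% in library 80, and a median of 8.36% in the other 85, from 0.303% to 47.7%. The median log2 ratio of the list was -1.31, beside 0.18 for all genes. Of the 29, 20 were 2-fold or more lower, beside 1.78% of all genes. No member of this list or of the other lists was without overlap on plain totals. Among the genes of this list with ratios above 0, the amylase genes Amy2a3 and Amy2a4 had ratios of 0.52 and 0.33, although 100% of their words are shared, and the acinar transcription factor genes Rbpjl and Bhlha15 had ratios of 0.39 and 0.24.

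Serpini2 was low also relative to the acinar genes. As a percentage of the summed CPM of the acinar list, it stood at 0.00399% to 0.0115% in libraries 76-85, with a median of 0.00566%, against 0.0130% to 0.0910% in the other 85, with a median of 0.0554%. On this measure, computed after the values were seen, the groups did not overlap. Cpa1, taken in the same way against the rest of the list, had medians of 5.93% in the 10 and 6.57% in the other 85, and Pnlip, the pancreatic lipase gene, 9.41% in the 10 and 9.85% in the other 85, with wide overlap for both. Rbpjl had medians of 0.0309% in the 10 and 0.0162% in the other 85, with 13 other libraries at or above the lowest of the 10. Amy2a4 had medians of 6.03% in the 10 and 3.33% in the other 85, with 27 such libraries.

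Of the Reg family of secreted lectins, Reg1 had medians of 384 CPM in the 10 and 868 CPM in the other 85, and relative to the acinar list 1.17% in the 10 and 1.00% in the other 85. Reg2 went the other way, with medians of 22.4 CPM in the 10 and 8.81 CPM in the other 85, but its values in the 10 ran from 8.04 CPM in library 82 to 450 CPM in library 79, and its ratio was 1.30, or 0.94 under TMM. Duct cell genes had a list median of -0.07, and 2 of 13 were 2-fold lower, beside 1.78% of all genes. Krt19, a keratin of duct cells, had medians of 0.635 CPM in the 10 and 3.63 CPM in the other 85. Epcam, an adhesion protein of epithelial cells, endocrine cells among them, had medians of 137 CPM in the 10 and 96.9 CPM in the other 85.

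**Figure D4:**
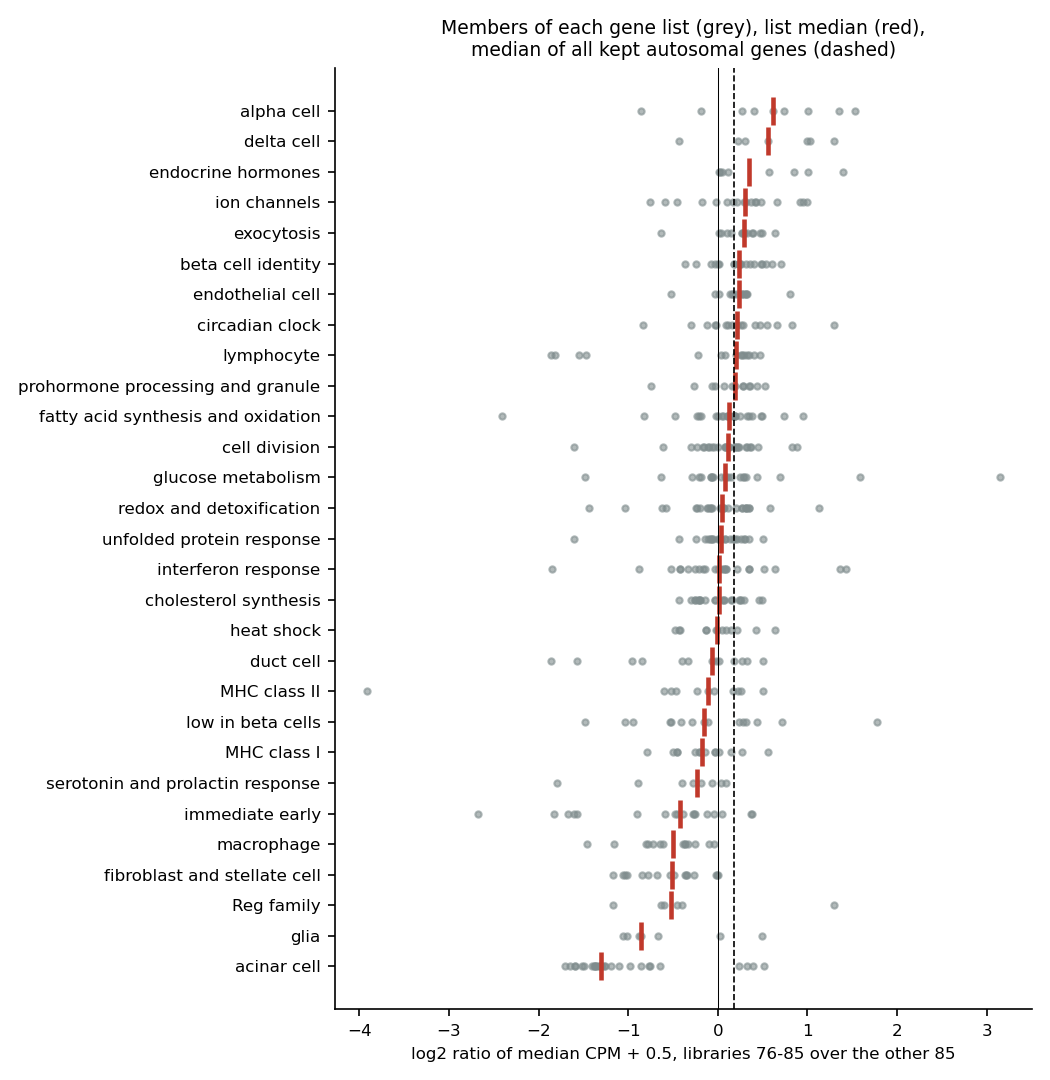
Log2 ratio of medians (CPM + 0.5), libraries 76-85 over the other 85, for the kept autosomal members of each gene list (grey points), with the list's median (red bar), the median of all kept autosomal genes at 0.18 (dashed) and equality (solid). The acinar list lies lowest at -1.31 and the alpha cell list highest at 0.62.

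Of 9 alpha cell genes 7 had a ratio above 0, and of 7 delta cell genes 6, with Dpp4 and Pdyn among the exceptions. These counts are near the share of all genes with a ratio above 0, 77.05%. Gcg, the glucagon gene, was at 11480 to 41940 CPM in libraries 76-85, with a median of 24030, against 2541 to 39220 CPM in the other 85, with a median of 11940. Of 9 autosomal alpha cell genes, 3 were 2-fold or more higher and 0 were 2-fold lower, beside 3.21% and 1.78% of all genes; under TMM 2 were higher and 1, Dpp4, lower. The list median was 0.62, or 0.44 under TMM. The transcription factor genes Irx1 and Irx2 had log2 ratios of 1.54 and 1.36, and Irx1 had medians of 18.1 CPM in the 10 and 5.90 CPM in the other 85. Dpp4, the peptidase that inactivates incretins, had the lowest ratio of the list at -0.86, or -1.04 under TMM. Sst, the somatostatin gene, had medians of 4318 CPM in the 10 and 2388 CPM in the other 85. Of 7 delta cell genes, 2 were 2-fold or more higher, beside 3.21% of all genes. They were Rbp4, a retinol-binding protein, with a ratio of 1.29, and Ghsr, the ghrelin receptor, with 1.03. Under TMM 1 of the 7 was past 2-fold, Rbp4 at 1.10. Pdyn, the prodynorphin gene, had the lowest ratio of the list, -0.43, or -0.84 under TMM. Hhex, the transcription factor of delta cells, had a ratio of 0.99. Pyy, the peptide YY gene, had medians of 1437 CPM in the 10 and 546 CPM in the other 85 and a ratio of 1.40. All of these genes overlapped between the groups.

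The acinar share went the other way and was lower in the 10, at a median of 3.45% of counts against 8.36% in the other 85. Its part in the endocrine ratios was not tested. Without the 14 other libraries in which acinar genes took over 25% of counts, 383 genes were 2-fold or more higher and 258 lower.

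The median ratio of beta cell genes was close to that of all genes. The insulin gene Ins2 had a log2 ratio of 0.11, which turned to -0.16 under TMM, and Iapp, the islet amyloid gene, one of 0.01, which turned to -0.21. Ins2 was at 95700 to 142400 CPM in libraries 76-85, with a median of 118500, against a median of 109600 CPM in the other 85. The median ratio of 21 beta cell identity genes was 0.24, or 0.04 under TMM. Of the 21, 0 were 2-fold higher or lower, which is near the share of all genes, 3.21% higher and 1.78% lower. Glp1r, the receptor of the incretin GLP-1, had the highest ratio, 0.71, with 264 to 322 CPM in the 10 against 50.9 to 439 CPM in the other 85. Trpm5, a cation channel gated by calcium, had the lowest, -0.37. The summed share of 8 hormone genes had a median of 22.1% in the 10 and 18.1% in the other 85.

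Of 13 genes of prohormone processing and granules, 15 of exocytosis and 18 ion channel genes, 0 were past 2-fold in either direction, a count near the share of all genes. The list medians were 0.19, 0.29 and 0.30 on plain totals, and -0.07, 0.08 and -0.01 under TMM, so the first and the last changed sign. Scg5, the chaperone of the convertase PC2, was the lowest of the granule list, at 434 to 611 CPM in libraries 76-85 with a median of 536, against a median of 898 CPM in the other 85. Vgf, a granin precursor, had medians of 34.1 CPM in the 10 and 23.5 CPM in the other 85. Stx1a, a plasma membrane SNARE of exocytosis, was at 15.5 to 22.1 CPM in the 10, with a median of 18.1, and 12 other libraries were at or above the lowest of them. The potassium leak channel gene Kcnk3 had medians of 33.7 CPM in the 10 and 16.6 CPM in the other 85, and Kcnq1 of 3.46 CPM in the 10 and 6.20 CPM in the other 85.

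In glucose metabolism, 2 of 22 genes were 2-fold or more higher, Fbp1 among them, and 1 was lower. Of all genes, 3.21% were higher and 1.78% lower by this measure. The lower gene was Hk2, a hexokinase with high affinity for glucose that beta cells normally keep low, at a median of 0.524 CPM in the 10 and 2.37 CPM in the other 85. Txnip, a glucose-induced inhibitor of thioredoxin, had medians of 1233 CPM in the 10 and 761 CPM in the other 85. The list median was 0.09, or -0.12 under TMM. Among 28 genes of fatty acid synthesis and oxidation, 0 were 2-fold or more higher and 1 was lower, counts near those shares. Acacb, an acetyl-CoA carboxylase, had the highest ratio, 0.95, with medians of 9.85 CPM in the 10 and 4.87 CPM in the other 85. Of 22 cholesterol synthesis genes 0 were past 2-fold, also near those shares.

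Gpx3, a secreted glutathione peroxidase, was the one redox gene of 28 that was 2-fold higher, with a ratio of 1.13, and under TMM, at 0.87, it was not. A count of 1 of 28 is near the share of all genes, 3.21%. Gpx3 was at 364 to 862 CPM in libraries 76-85, with a median of 565, against 54.1 to 574 CPM in the other 85, with a median of 258. Aldh1a1, a retinaldehyde dehydrogenase, had medians of 1.51 CPM in the 10 and 4.95 CPM in the other 85, and its relative Aldh1a3, among the genes normally low in beta cells, went the other way. Aldh1a3 was at 4.58 to 26.2 CPM in the 10, with a median of 11.8, against a median of 3.09 CPM in the other 85. Its ratio was 1.77, and 31 other libraries were at or above the lowest of the 10.

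Cell division genes had a list median of 0.11, or -0.12 under TMM. Mcm6, a subunit of the replicative helicase, was at 1.93 to 5.47 CPM in libraries 76-85, with a median of 2.82, against 3.38 to 109 CPM in the other 85, with a median of 9.56. It overlapped on plain totals and did not under TMM. None of the other 28 genes was past 2-fold, beside 3.21% of all genes higher and 1.78% lower. Foxm1, a transcription factor of mitosis, had medians of 6.22 CPM in the 10 and 3.14 CPM in the other 85.

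Immediate early genes, which are switched on within minutes of a stimulus, mostly had lower medians. Of 18, 3 had a ratio above 0, beside 77.05% of all genes, and the list median was -0.42, or -0.63 under TMM. The genes 2-fold or more lower numbered 5, with 0 higher: Nr4a3, Fosl2, Egr3, Atf3 and Ier3, with log2 ratios of -2.68, -1.83, -1.67, -1.61 and -1.57. Of all genes, 1.78% were 2-fold or more lower and 3.21% higher. Fos, a subunit of the AP-1 transcription factor, and Npas4 had the highest ratios, 0.38 and 0.37. Atf3, a stress-induced transcription factor, ran from 23.4 CPM in library 78 to 437 CPM in library 85, and was at 343 and 406 CPM in libraries 76 and 77, against 23.4 to 160 CPM in the remaining 7. The median of the other 85 was 324 CPM. Nfkbiz, a nuclear regulator of NF-kappa-B, was at 19.7 to 183 CPM in the 10, with a median of 56.1, against a median of 281 CPM in the other 85. Csrnp1, a transcription factor gene, had medians of 45.3 CPM in the 10 and 147 CPM in the other 85. Cish, which dampens cytokine and prolactin signals, had medians of 26.5 CPM in the 10 and 93.5 CPM in the other 85. The values of Atf3, Csrnp1, Nfkbiz, Nr4a3 and Cish lay far apart within the 10, with Nr4a3 at 0.362 to 5.51 CPM and Cish at 5.69 to 80.8 CPM. Nr4a3 had 37 other libraries within reach of the 10, and Nfkbiz 25. The summed share of the 18 genes had a median of 1.054% in the 10, from 0.53% to 1.778%, and 1.165% in the other 85. With 1 library left out at a time, the ratio of Atf3 lay between -2.08 and -1.25 and that of Csrnp1 between -2.14 and -1.34.

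Heat shock genes had a list median of -0.01 with 0 of 13 past 2-fold, beside 3.21% of all genes higher and 1.78% lower. Within the 10, Hspa1b was at 273, 224 and 229 CPM in libraries 78, 79 and 80 and at 3.50 to 80.0 CPM in the other 7, but shares 68.1% of its words with another gene. Of 24 genes of the unfolded protein response, Atf3 was the only one past 2-fold, on the lower side, beside 1.78% of all genes. Ern1, the sensor kinase IRE1, had medians of 243 CPM in the 10 and 171 CPM in the other 85. Clock genes had a list median of 0.22, or 0.00 under TMM, and 1 of 17 was 2-fold higher, beside 3.21% of all genes. That gene, Per3, had a ratio of 1.29, or 0.95 under TMM, with medians of 34.8 CPM in the 10 and 13.9 CPM in the other 85. Nr1d1 had the lowest ratio, -0.83, or -1.19 under TMM, and ran from 23.8 to 278 CPM within the 10.

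Macrophage, fibroblast and most glial transcripts had lower medians. Of 14 macrophage genes 0 had a ratio above 0, beside 77.05% of all genes, and the list median was -0.50. Itgax, an integrin of dendritic cells and macrophages, had medians of 1.12 CPM in libraries 76-85 and 3.97 CPM in the other 85, and the complement gene C1qa 16.1 CPM in the 10 and 26.9 CPM in the other 85. Macrophage genes took a median of 0.00646% of counts in the 10 and 0.0107% in the other 85, whose highest share was 0.335%. Lymphocyte genes were divided: 4 of 15 were 2-fold or more lower, beside 1.78% of all genes. The antibody genes Igha and Igkc were among these 4, with ratios of -1.86 and -1.82. Of the 15, 10 had ratios above 0, beside 77.05% of all genes, and the list median was 0.21. Those 10 had medians under 1 CPM in both groups. Lymphocyte genes took a median of 0.00138% of counts in the 10 and 0.0038% in the other 85. Fibroblast and stellate genes had a list median of -0.51, with 4 of 16 past 2-fold lower, beside the same 1.78%. Among these was Lum, a matrix proteoglycan, at medians of 1.11 CPM in the 10 and 3.12 CPM in the other 85. Glial genes had a list median of -0.85, and 2 of 7 were 2-fold or more lower, beside the same 1.78%. Endothelial genes had a median of 0.24, and Tek, the angiopoietin receptor, was the highest at 22.9 to 36.3 CPM in the 10 against 3.65 to 27.4 CPM in the other 85.

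H2-Ea-ps, a class II gene named as a pseudogene, was at 0 to 0.0913 CPM in libraries 76-85 against a median of 7.64 CPM in the other 85. It reached down to that level in 29 other libraries, of which 16 were in the range 17-24 and 49-58, 8 in 66-75 and 5 in 91-100. The class I gene H2-K1 had medians of 295 CPM in the 10 and 199 CPM in the other 85, and H2-Q6 of 2.35 CPM in the 10 and 4.43 CPM in the other 85. Shared words make the class I values uncertain, at 22.8% and 51.8%. In the interferon list, Mx1, an antiviral GTPase, had medians of 2.91 CPM in the 10 and 0.767 CPM in the other 85, but relative to libraries 66-75 and 86-100 alone its ratio was -0.75. Cxcl10, a chemokine, had medians of 0.693 CPM in the 10 and 3.82 CPM in the other 85.

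The spread within libraries 76-85 was small for most genes: the median SD of log2 CPM was 0.17 in the 10, 0.34 in libraries 66-75, 0.46 in libraries 91-100 and 0.45 over the other 85. Library 85 stood out for immune genes. Macrophage genes took 0.0209% of its counts, against 0.00535% to 0.00837% in the other 9, and lymphocyte genes 0.0204%, against 0.000672% to 0.00725%. Its Lyz2 level, a lysozyme gene of macrophages and granulocytes, was 96.5 CPM against 3.65 to 11.5 CPM in the other 9. Library 81 had the next highest lymphocyte and macrophage shares. Without libraries 81 and 85, 41 genes were higher and 5 lower without overlap, counts that leaving out libraries can only keep or raise.

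**Figure D5:**
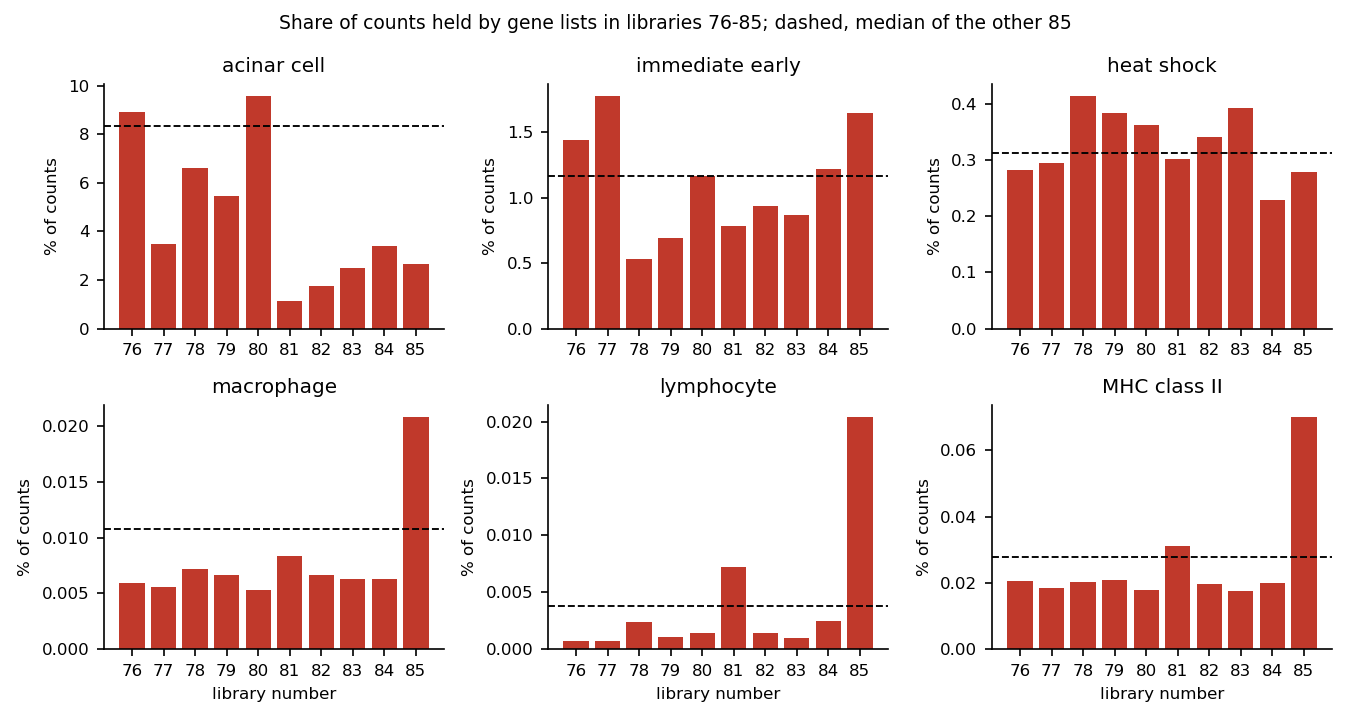
Share of counts (vertical axis, percent) held by 6 gene lists in each of libraries 76-85 (horizontal axis), with a dashed line at the median of the other 85 libraries. The macrophage, lymphocyte and MHC class II shares are highest in library 85, and the acinar share runs from 1.14% to 9.58%.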

How the data were processed

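RNA of islets was sequenced in 95 libraries, per the labels. The authors deposited a table of unnormalized estimated counts over 20638 genes, in which 67.7% of the entries are whole to within 1e-06. Their other deposited table, of variance-stabilised values on a scale close to log2, served only as an alternative. The submitters' processing notes name the build GRCm38 and DESeq2. Which aligner and counter were run, and whether strand was used, is not given in the sources used here.

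CPM was the estimated count over the column sum times 1000000, and a log2 ratio is that of group medians after adding 0.5 CPM. Genes with 1 CPM or more in at least 10 libraries were kept, 15839 in all and 15281 autosomal. This filter lets a gene pass through libraries 76-85 alone: 125 kept genes had 1 CPM or more in fewer than 10 of the other 85. Positions are the authors'; gene types came from GENCODE release M21, which matched 15231 of the kept autosomal genes. Shared sequence is the percentage of 31-base words of a gene that also occur in GENCODE transcripts of another gene. Alternatives used TMM factors from edgeR 4.0.16, which had a median of 1.16 in libraries 76-85 and 1.05 in the other 85, and size factors from DESeq2 1.42.0. The other steps used Python 3.11.15 and pandas 2.3.3, and were tested on simulated counts.

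The 10 libraries, the other number ranges and the gene lists were chosen with earlier results of these data known, so no test was made of this contrast. Named genes are, on each side, 12 protein-coding genes sharing under 20% of words, by the widest gap and then by ratio of medians at 5 CPM or more, 4 noncoding or sharing genes by gap, the highest and the extreme members of each list, the 10 genes with the widest spread in libraries 76-85 stretches of neighbouring genes, and Xist, Ddx3y and Nnt. The remaining genes without overlap, the largest ratios, and the percentages of the acinar list were added after values were seen. Some genes that this rule names are not reported here.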

Additional observations from a re-analysis of the deposited data

Results flagged for a closer look

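Within libraries 76-85, 124 named genes and 30 gene lists were examined for a library far from the other 9 (a large gap to the nearest library relative to the range of the 10, by Dixon's criterion). For a group of values chosen beforehand, chance alone gives this about 1 time in 20. Here 14 were found, 9 of them in library 85. The 14 cannot be set against that rate. Some genes were named for their wide spread in these same 10 libraries, and flagged lists hold flagged genes. In library 85, Lyz2 was at 96.5 CPM with the next highest library at 11.5, Itgax at 5.29 CPM with the next at 1.94, Cd74, the class II chaperone, at 338 CPM with the next at 143, and Zfp36l1, an RNA-binding protein gene, at 48.9 CPM with the next at 23.2. Its shares of counts were 0.0209% for macrophage, 0.0204% for lymphocyte, 0.126% for MHC class I and 0.0702% for MHC class II genes, and 0.0204% for genes normally low in beta cells. Library 82 was highest for Chga, the granule protein chromogranin A, at 15320 CPM with the next at 13210, and for Syt13, a synaptotagmin, at 1447 CPM with the next at 1294. Library 80 was lowest for Wdr72, at 10.7 CPM with the next at 12.9, and for the share of fatty acid genes, 0.275%. Library 78 was lowest for the share of glucose metabolism genes, 0.294%.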

How the results depend on the processing

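The counts of genes without overlap (36 higher, 5 lower) and past 2-fold (491 higher, 272 lower) depended on the scale. They were 23 and 12, and 290 and 364, with TMM; 22 and 16, and 280 and 373, with DESeq2 size factors; 23 and 16, and 74 and 136, on the deposited variance-stabilised values. Totals without acinar, Reg and hormone genes gave 33 and 8 without overlap. A median of 10 CPM or more in either group gave 22 and 2, and 189 and 119; a prior of 2 CPM gave 230 and 150 past 2-fold, and subtracting the median ratio of all genes, added after seeing the data, 310 higher. Without the other libraries over 25% acinar counts 9 were lower without overlap. Against libraries 66-75 and 86-100 alone there were 241 and 58 without overlap and 913 past 2-fold lower, and Mx1 had a ratio of -0.75. Of fold calls, higher genes made up 64.4%, but 44.3% with TMM, 42.9% with DESeq2, 35.2% on variance-stabilised values, 38.9% against libraries 66-75 and 86-100 and 45.2% after subtracting the median. Leaving out 1 of the 10 libraries at a time gave 36 to 41 and 5 to 6 without overlap, and 453 to 521 and 255 to 294 past 2-fold. Leaving out libraries of either group can only keep or add genes without overlap, so these counts could not fall and do not measure stability. The median correlation with the other 85 was 0.953 over all kept genes, 0.779 as Pearson's r and 0.813 on variance-stabilised values, and 85 to 89 of the 90 nearest places stayed within libraries 76-85. The labels name no pairs of libraries, so no paired analysis was possible. Depth limits the lowest levels: genes under 1 CPM rest on few reads per library.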
